A study of Mus musculus with 2 samples.

Results

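The 10 hypoxia response genes examined here were Slc2a1, Car9, P4ha1, Ero1l, Bnip3, Ndrg1, Ddit4, Egln3, Ankrd37 and Adm. They were chosen by symbol, and each of the 10 matched 1 of the 32285 gene IDs in the files. Live cells without CD45, a surface protein of leukocytes, had been sorted from 1 Dll1+ and 1 Dll1- mouse mammary tumor, neither of them treated. Dll1, which gives the groups their names, encodes a ligand that activates Notch receptors on neighbouring cells. Per the labels' protocols, the tissue was digested for 55 minutes at 37 °C before 10x Single Cell v3 libraries were made. The sources used here do not give the strain, the age, the tumor model or by which measure a tumor counted as Dll1+ or Dll1-, and each group was 1 tumor.

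Cells short of oxygen stabilise the alpha subunits of the hypoxia-inducible factors (HIFs), which otherwise are hydroxylated by the Egln prolyl hydroxylases, bound by the Vhl ubiquitin ligase and degraded. The stabilised alpha subunit pairs with Arnt and binds DNA at hypoxia response elements with the core ACGTG or GCGTG. Targets of HIF move a cell from respiration to glycolysis, export acid, remodel matrix and signal to blood vessels, and solid tumors of the breast are known for regions with such a response. Among the genes here, Slc2a1 and Car9 serve sugar import and acid handling, P4ha1 and Ero1l protein maturation, Bnip3, Ndrg1 and Ddit4 mitochondria and growth control, Egln3 and Ankrd37 are targets that include the pathway's own brake, and Adm is secreted.

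On mm10 (GENCODE M21) all 10 are protein-coding, among them Ndrg1 at chr15:66929318-66969640, Car9 at chr4:43506966-43513729, Egln3 at chr12:54178981-54203860, P4ha1 at chr10:59323296-59373304 and Ero1l at chr14:45283087-45318771. RefSeq promoter sequences on GRCm38.p6 were found for 9 of the 10 genes (Ero1l under its RefSeq symbol Ero1a). Each window ran from 250 bases before the RefSeq start to 50 bases after it, and both strands were searched. ACGTG was found in 8 of the 9 windows, against 19.6% of 32851 mouse windows of the same length. GCGTG was found in 7 of the 9, against 32.4%. Adm, the exception for ACGTG, held GCGTG in its window. A match is a description of the letters and not evidence of binding. The 250 bases before the start are printed for 5 genes that the results turn on. Slc2a1, Bnip3 and Ankrd37 were high in the same tumor cells. Ddit4 carried the same core and did not follow them. Adm lacked ACGTG and was highest in fibroblast-like cells. Within tumor cells Adm too was higher where 4 or more of the other 9 genes were detected, by 4.54-fold in Dll1+ and 2.93-fold in Dll1- cells. Capitals mark ACGTG on either strand, where CACGT is ACGTG read on the opposite strand.
Slc2a1, chr4:119108495-119108744, plus strand: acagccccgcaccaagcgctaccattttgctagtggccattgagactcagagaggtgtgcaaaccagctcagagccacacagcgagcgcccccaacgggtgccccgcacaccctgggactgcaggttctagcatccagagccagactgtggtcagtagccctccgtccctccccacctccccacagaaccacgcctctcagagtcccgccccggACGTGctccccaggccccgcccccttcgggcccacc
Bnip3, chr7:138909507-138909756, minus strand: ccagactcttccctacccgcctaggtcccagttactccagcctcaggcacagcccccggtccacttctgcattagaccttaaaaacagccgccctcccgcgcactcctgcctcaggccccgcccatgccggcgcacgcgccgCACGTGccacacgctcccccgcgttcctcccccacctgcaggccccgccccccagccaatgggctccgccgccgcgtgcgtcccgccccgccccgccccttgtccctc
Ankrd37, chr8:45999851-46000100, minus strand: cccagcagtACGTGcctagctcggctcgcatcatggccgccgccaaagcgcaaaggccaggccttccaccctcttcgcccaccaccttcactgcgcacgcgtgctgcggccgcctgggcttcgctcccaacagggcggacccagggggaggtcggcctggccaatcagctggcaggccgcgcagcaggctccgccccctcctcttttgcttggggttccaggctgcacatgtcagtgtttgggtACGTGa
Ddit4, chr10:59951771-59952020, minus strand: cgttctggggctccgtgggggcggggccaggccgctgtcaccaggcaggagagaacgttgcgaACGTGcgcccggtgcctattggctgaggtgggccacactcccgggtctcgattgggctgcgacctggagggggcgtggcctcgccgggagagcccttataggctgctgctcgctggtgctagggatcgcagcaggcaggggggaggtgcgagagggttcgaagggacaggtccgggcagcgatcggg
Adm, chr7:110627407-110627656, plus strand: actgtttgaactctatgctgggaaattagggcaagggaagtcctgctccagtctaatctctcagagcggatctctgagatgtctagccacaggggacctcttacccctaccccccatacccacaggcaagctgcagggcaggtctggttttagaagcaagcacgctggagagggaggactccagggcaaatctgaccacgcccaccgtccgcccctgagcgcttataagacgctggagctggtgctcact
The core began 36 bases before the start in Slc2a1 and 187 bases before it in Ddit4. Ankrd37 held it in 2 places, beginning 241 and 6 bases before the start. The capitals of Bnip3 are a palindrome that reads as the core on each strand, so its 2 matches, beginning 108 and 107 bases before the start, overlap. Of the other windows, the core began 18 bases before the start in Car9, 229 in Egln3, 16 in P4ha1 and 63 in Ero1l. GENCODE M21 places the first base of some of these genes elsewhere, 60 bases upstream of the RefSeq start in Car9 and 5857 upstream in Ankrd37.

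The files held 117230907 and 135960457 unique molecular identifiers (UMIs) in all, for the Dll1+ and the Dll1- library, with 109 barcode sequences in common. The filters left 9685 and 10132 cells, whose median UMI counts were 7882 and 9904. Epithelial-like cells, called tumor cells here although normal mammary epithelium was not separated from them, were 8213 and 8733 of the cells. All 10 epithelial markers were detected in them, but also in each of the classes named next. Fibroblast-like cells numbered 355 and 586, pericyte-like cells 314 and 174, endothelial-like cells 292 and 280 although the antibodies used before the sort included one to CD31 of endothelium, and Krt5-led cells, which met the marker rule for basal cells, 331 and 311. Dll1 itself stood at 53.3 CPM in Dll1+ and 3.98 CPM in Dll1- tumor cells, CPM being the counts-per-million scale, a gene's UMIs over all UMIs of the same cells. The 10 epithelial markers summed to 9089 and 13521 CPM in tumor cells, against 265 to 2144 CPM in the other classes. With 1 library per group there is no test. Intervals in parentheses are at the 95% level and hold counting error alone, and a difference between the libraries cannot be told apart from a difference between any other pair of tumors or preparations. A gene is called higher or lower where its levels were at least 1.5-fold apart.

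Most of the 10 genes were highest in tumor cells, but Adm was highest in fibroblast-like and P4ha1 in pericyte-like cells. In the Dll1+ library 6 of the 10 had their highest level in epithelial-like cells, and in the Dll1- library 7. The share of all genes with their highest level there is not given, so these counts are descriptions only. The clearest case was Car9, which encodes a carbonic anhydrase of the cell surface. Car9 stood at 66.2 CPM (64.5 to 68.0) in Dll1+ and 30.5 CPM (29.5 to 31.6) in Dll1- tumor cells, and at 0 to 4.60 CPM in fibroblast-like, pericyte-like and endothelial-like cells of both libraries. In Dll1- endothelial-like cells no Car9 UMI was found, which allows a level of up to 2.28 CPM by a floor of 3 counts. The Krt5-led cells lay between, at 20.7 and 8.49 CPM. With every cell thinned to 2000 UMIs, Car9 was detected in 12.4% and 5.79% of tumor cells (35.4% and 22.9% without thinning), against 1.27% and 0% (0 of 227 cells) of endothelial-like cells. Endothelial-like cells were the shallowest of these classes, with medians of 4162 and 3730 UMIs against 8036 and 10635 in tumor cells.

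Egln3, one of the prolyl hydroxylases and itself a HIF target, and Ero1l, an oxidase that forms disulfide bonds in the endoplasmic reticulum, were also tumor cell genes. Egln3 stood at 184 CPM in Dll1+ and 87.0 CPM in Dll1- tumor cells and at 4.73 to 28.8 CPM in the other 4 classes. Ero1l stood at 162 and 219 CPM in tumor cells and at 29.2 to 106 CPM elsewhere. Slc2a1, the glucose transporter of most cells, was highest in tumor cells at 129 and 131 CPM, followed by Krt5-led cells at 97.4 and 89.0 CPM, and lowest in fibroblast-like cells at 24.3 and 11.4 CPM. Bnip3, which marks mitochondria for removal, was highest in tumor cells at 64.0 and 103 CPM and lowest in endothelial-like cells at 9.21 and 6.09 CPM.

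Adm encodes adrenomedullin, a secreted peptide that widens blood vessels. In fibroblast-like cells Adm stood at 614 CPM (588 to 640) in the Dll1+ and 764 CPM (738 to 791) in the Dll1- library. In tumor cells it stood at 141 and 97.0 CPM, and in endothelial-like cells at 122 and 112 CPM. After the same thinning Adm was detected in 36.5% (31.4 to 41.9) and 46.0% (41.8 to 50.2) of the fibroblast-like cells, against 3.10% and 2.65% of the Krt5-led cells, its lowest class by CPM in the Dll1+ and next to lowest in the Dll1- library. Without thinning those shares were 52.4% and 59.7% in fibroblast-like and 12.7% and 10.3% in Krt5-led cells. The fibroblast-like cells had medians of 9405 and 6706 UMIs, and the Krt5-led cells 11323 and 9139.

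P4ha1 encodes a catalytic subunit of the prolyl hydroxylase that stabilises collagen. P4ha1 stood at 108 CPM (94.6 to 122) in Dll1+ and 111 CPM (91.6 to 133) in Dll1- pericyte-like cells, then at 74.8 and 91.9 CPM in fibroblast-like cells, where the Dll1- interval (83.0 to 102) overlapped that of the pericyte-like cells. Its lowest level was that of the tumor cells, 20.2 and 22.1 CPM. It is therefore the 1 gene of the 10 whose lowest class was the tumor cells in both libraries.

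Ndrg1, Ddit4 and Ankrd37 had no single class that led in both libraries. Ndrg1, a stress-induced cytoplasmic protein, was highest in Krt5-led cells of the Dll1+ library at 216 CPM (203 to 231) and in tumor cells of the Dll1- library at 302 CPM (299 to 305). Ddit4, an inhibitor of the growth kinase mTORC1 that glucocorticoids, p53 and protein-folding stress also induce, was highest in tumor cells of the Dll1+ library at 205 CPM (202 to 208). Pericyte-like cells of the Dll1- library had a Ddit4 level of 358 CPM (323 to 396), whose interval holds the 347 CPM of the tumor cells. Ankrd37, an ankyrin repeat protein, was low throughout, at 1.17 to 29.6 CPM.

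**Figure D1:**
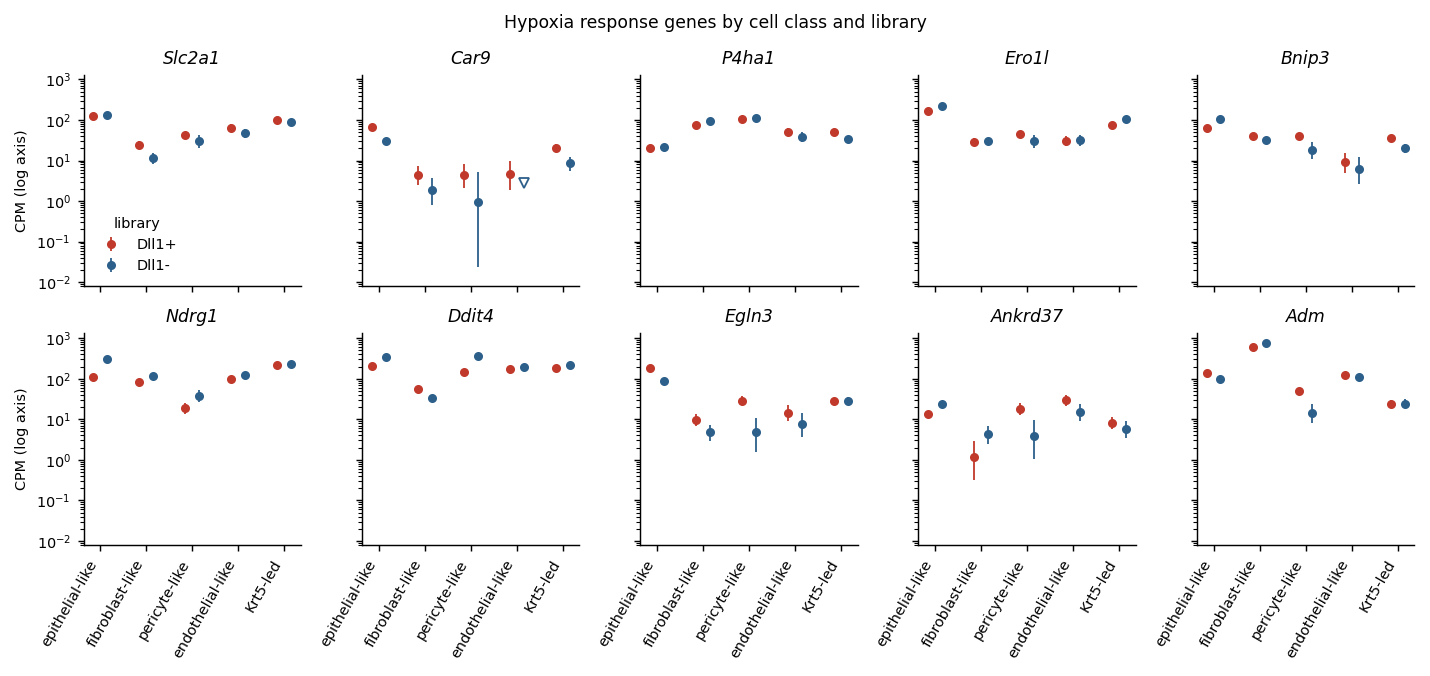
Level of each of the 10 genes in 5 cell classes, in CPM on a log axis, for the Dll1+ (red) and Dll1- (blue) library; bars are 95% counting intervals and the open triangle is the upper bound of a class with no UMI. Adm is highest in fibroblast-like cells, at 614 and 764 CPM, and Car9 in epithelial-like cells, at 66.2 and 30.5 CPM.

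Between the tumors, the 10 genes did not move together in tumor cells. All 10 passed the level filter of 20 CPM in a library. Car9 and Egln3 were higher in the Dll1+ library, which is 2 of 10 genes against a background of 18.3% of the 6250 genes compared. Ndrg1, Ankrd37, Ddit4 and Bnip3 were lower, which is 4 of 10 against a background of 6.94%. The other 4 lay within 1.5-fold. The median log2 ratio, Dll1+ over Dll1-, was -0.29 for the 10 genes and 0.17 for all genes compared. Scaling by TMM factors shifted every ratio by -0.26 on the log2 scale. After that shift 11.1% of all genes were higher and 13.7% lower, in place of 18.3% and 6.94%, and Ero1l joined the lower genes at -0.70. Car9 and Egln3 stayed past 1.5-fold, at 0.86 and 0.82.

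By role, the glucose transporter Slc2a1 differed by a log2 ratio of -0.03, with an interval from 0.993-fold to 1.04-fold lower, while the carbonic anhydrase Car9 was 2.17-fold (2.08 to 2.27) higher in Dll1+ tumor cells. The protein maturation genes lay within the threshold, P4ha1 at a log2 ratio of -0.13 and Ero1l, at 162 against 219 CPM, 1.35-fold lower. All 3 genes of mitochondria and growth control were lower. Ndrg1, at 108 CPM against 302 CPM, was 2.79-fold (2.72 to 2.86) lower and was the most separated of the 10. Ddit4, at 205 against 347 CPM, was 1.70-fold lower, and Bnip3, at 64.0 against 103 CPM, 1.61-fold lower. Egln3 was 2.12-fold (2.06 to 2.17) higher and Ankrd37, at 13.8 against 23.6 CPM, 1.71-fold lower. Adm was 1.45-fold (1.42 to 1.49) higher, just short of the threshold. The tumor cells of the libraries also differed in depth, with the medians given above, and in median mitochondrial share, at 5.68% and 3.67%, and the part of either in these differences was not tested.

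In fibroblast-like cells 7 of the 10 passed the level filter. Slc2a1 (2.13-fold, 1.48 to 3.11) and Ddit4 (1.65-fold, 1.32 to 2.07) were higher in the Dll1+ library, against a background of 7.32% of genes, and 0 were lower, against 4.36%. Adm, with 2099 and 3227 UMIs there, was 1.25-fold (1.18 to 1.32) lower. In endothelial-like cells 7 passed, and Ankrd37 alone was higher (1.94-fold, 1.12 to 3.47), against 10.7%, with 0 lower, against 3.65%.

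In Krt5-led cells 9 of the 10 passed the level filter. Car9 (2.44-fold, 1.55 to 3.96), Bnip3 (1.73-fold, 1.28 to 2.38) and P4ha1 (a log2 ratio of 0.59, on the threshold) were higher in the Dll1+ library, against 13.0%, and 0 were lower, against 8.92%. With every cell thinned to 2000 UMIs Car9 and Bnip3 no longer passed 1.5-fold, at log2 ratios of 0.49 and 0.21, and with doublets kept Bnip3 did not, at 0.25. The 9 markers of skin and hair keratinocytes summed to 3356 and 8218 CPM in these cells, and their part in the result was not tested.

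In pericyte-like cells 8 of the 10 passed. Egln3 (65 against 5 UMIs), Adm (113 against 15) and Bnip3 (90 against 19) were higher in the Dll1+ library, against 14.7% of genes, by 6.08-fold (2.48 to 19.4), 3.53-fold (2.05 to 6.51) and 2.22-fold (1.34 to 3.85). Ddit4 was 2.51-fold (2.16 to 2.92) and Ndrg1 1.99-fold (1.26 to 3.13) lower, against 4.36%. The pericyte-like result depended on the removal of doublets. With doublets kept the class grew from 314 and 174 to 558 and 415 cells, Adm and Bnip3 turned to log2 ratios of -0.84 and -0.31, and Egln3 went from 2.61 to 0.60. The 10 epithelial markers summed to 265 and 597 CPM in the class as reported, and the part of doublets or of epithelial RNA in the result was not tested further.

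Within the Dll1+ tumor cells each of the 10 genes ranged more widely over cell states, by 2.36-fold to 44.9-fold, than between the libraries. In the Dll1- library this did not hold for Egln3, which ranged 1.56-fold over states and 2.12-fold between the libraries, and Ddit4 ranged 1.77-fold. The states are clusters of tumor cells made without these 10 genes and without 54 further HIF targets, and they are called by a leading gene. The Fermt1-led state, also led by AA467197 and Fxyd5, was 3.39% (278) of the Dll1+ and 34.8% (3043) of the Dll1- tumor cells. It had the highest level of 7 of the 10 genes in the Dll1+ and of 8 in the Dll1- library. For counts of highest or lowest levels by state, here and below, the share over all genes is not given. Such counts are descriptions only. The Fermt1-led state was singled out after its values had been seen, so what follows is a description of it.

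Ndrg1 stood at 543 CPM in the Fermt1-led state and 93.9 CPM in all other tumor cells of the Dll1+ library, 5.79-fold (5.46 to 6.12) apart, and at 604 and 187 CPM in the Dll1- library, 3.23-fold (3.16 to 3.30) apart. Bnip3 stood at 273 against 57.1 CPM in the Dll1+ library and at 229 against 55.6 CPM in the Dll1- library. Slc2a1 stood at 325 against 122 CPM and at 311 against 62.5 CPM. In all 3 genes the state was above the other tumor cells of both libraries by 2.66-fold or more. Car9, Ankrd37, P4ha1 and Ero1l were higher as well, by 1.90-fold to 5.00-fold. Egln3 was not, at 182 against 184 CPM in the Dll1+ and 104 against 80.5 CPM in the Dll1- library.

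In counts, 7 of the 10 genes were higher in the state in the Dll1+ library, against 14.1% of the 6464 genes compared, and 8 in the Dll1- library, against 14.6% of 5820. Lower were 0 in the Dll1+ library, against 25.7%, and 1, Ddit4, in the Dll1- library, against 27.9%. The median log2 ratio of the 10 genes was 1.35 and 1.34, beside -0.13 and -0.17 for all genes. The state supplied 3.19% of the UMIs of Dll1+ and 27.6% of those of Dll1- tumor cells. It held 55.1% of the Ndrg1, 61.0% of the Bnip3 and 65.5% of the Car9 UMIs of Dll1- tumor cells.

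Ddit4 had a different order of states. It was highest in the Lalba-led state, named for a milk protein gene, at 314 CPM (306 to 323) in the Dll1+ and 406 CPM (401 to 411) in the Dll1- library. In the Fermt1-led state it stood at 252 CPM against 203 CPM in the other Dll1+ tumor cells, and at 229 against 392.2 CPM in the Dll1- library. Adm and Egln3 were highest, in the Dll1+ library, in the Cxcl10-led state of 4387 Dll1+ cells, at 263 and 271 CPM. In the Dll1- library Egln3 was highest in the 89 Sprr1a-led cells at 113 CPM, with an interval that holds the 104 CPM of the Fermt1-led state. The Nusap1-led and Ptn-led cells, in which the summed level of 8 cycling genes was 1359 to 1742 CPM against 77.8 to 107 CPM in the other states, held the lowest level of 9 of the 10 genes in the Dll1+ library. Ndrg1 ranged from 12.1 CPM in Ptn-led to 543 CPM in Fermt1-led Dll1+ cells, 44.9-fold apart, and Ddit4 from 133 to 314 CPM, 2.36-fold apart.

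Other measures also differed between the Fermt1-led and the Lalba-led state, and some of them were not particular to the Fermt1-led state. Its median share of mitochondrial UMIs was 3.49% and 2.90%, against 5.71% and 4.31% in the Lalba-led state, and its cells had medians of 8878 and 8818 UMIs, against 10928.5 and 11717.5. The mitochondrial share was 3.02% in the Dll1- Nusap1-led and 3.23% in the Dll1- Sprr1a-led state. The summed level of the 13 dissociation and immediate early genes was 12164 and 12204 CPM, against 20980 and 19706 CPM in the Lalba-led state. That sum was lower still in the Dll1+ Pdzd2-led, Ptn-led and Nusap1-led states, at 7021, 7538 and 10529 CPM. The summed level of the 10 epithelial markers in the Fermt1-led state was 17279 and 18204 CPM, against 11743 and 12641 CPM in the Lalba-led state. That of the 8 macrophage markers was 64.7 and 25.03 CPM, against 9.35 and 5.23 CPM. The basal markers summed to 964 and 531 CPM, against 138 and 171 CPM, and the muscle markers to 51.5 and 4.19 CPM, against 0.52 and 1.71 CPM. In the Dll1+ Cxcl10-led and the Dll1- Sprr1a-led state the basal markers summed to 615 and 10603 CPM. Dll1 in the Dll1+ library stood at 12.03 CPM (32 UMIs) in the Fermt1-led state and reached 162 CPM in the Pdzd2-led state. The part of these measures in the result was not tested.

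**Figure D2:**
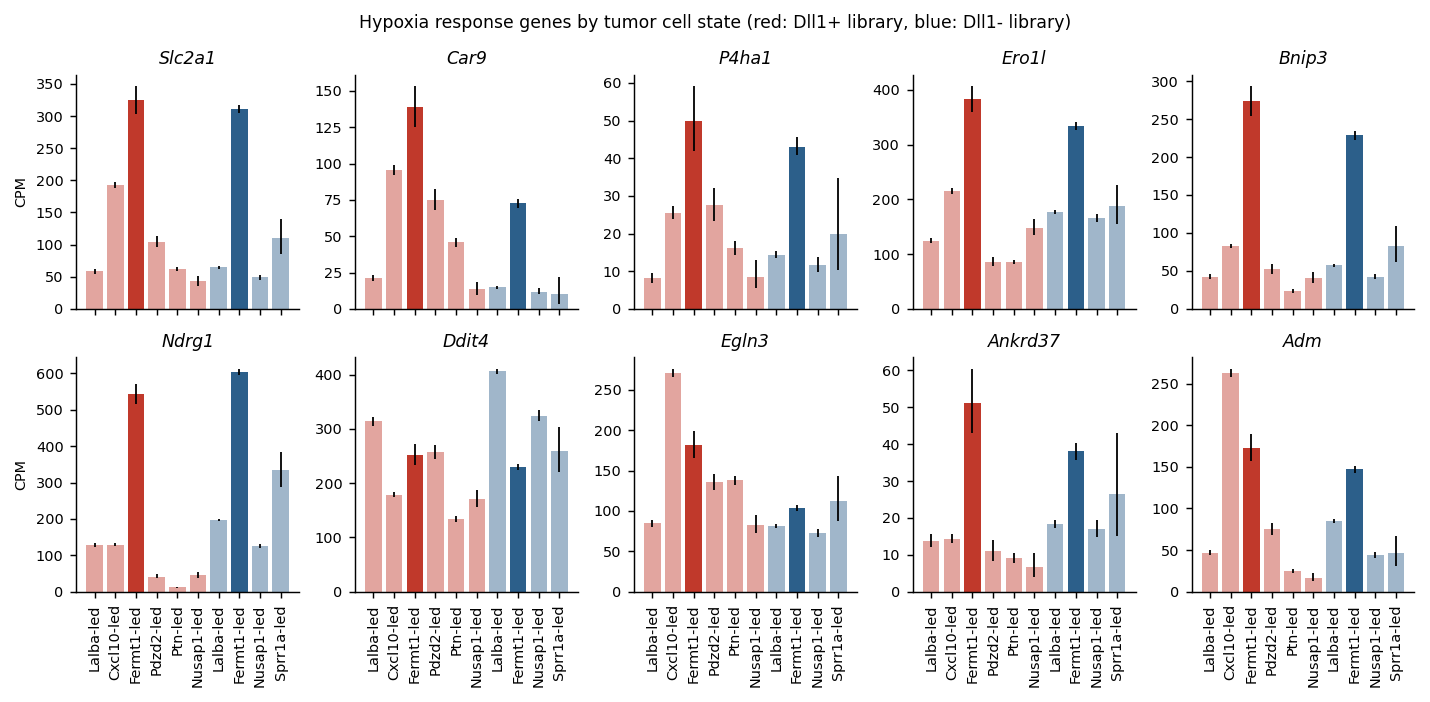
Level of each of the 10 genes in CPM (axis from 0) in the tumor cell states with at least 50 cells, red for the Dll1+ and blue for the Dll1- library, with 95% counting intervals and the Fermt1-led state in full colour. Ndrg1, Bnip3 and Slc2a1 are highest in the Fermt1-led state of both libraries, and Ddit4 in the Lalba-led state.

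The libraries were also compared within the tumor cell states they shared. States with at least 50 cells in each library (Lalba-led, Fermt1-led and Nusap1-led) held 8624 of the 8733 Dll1- tumor cells but 1787 of the 8213 Dll1+ tumor cells. Within the Fermt1-led state, Car9 (1.91-fold, 1.71 to 2.14) and Egln3 (1.75-fold, 1.59 to 1.93) were higher in the Dll1+ library, 2 of 10 against a background of 14.7%, and 0 were lower, against 3.29%. Both counts are near the background. Ndrg1, 2.79-fold lower over all tumor cells, was 1.11-fold (1.05 to 1.17) lower within this state, and Bnip3 and Ankrd37 were on the other side of 0, at log2 ratios of 0.26 and 0.43.

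Within the Lalba-led state 0 of the 8 genes that passed the level filter were higher, against 6.75%, and 2 were lower, against 3.70%. These were Adm, at 46.8 against 84.6 CPM, and Ndrg1, at 129 against 197 CPM. Within the Nusap1-led state, which had 119 Dll1+ and 539 Dll1- cells, 0 of 7 were higher, against 5.30%, and Ndrg1, Adm and Ddit4 were lower, against 4.97%. Ndrg1 was 2.80-fold (2.33 to 3.41), Adm 2.62-fold and Ddit4 1.90-fold lower there. With the CPM of the 3 shared states averaged with equal weight, Ndrg1 moved from -1.48 to -0.37 on the log2 scale. Bnip3 moved from -0.69 to 0.12 and Ddit4 from -0.76 to -0.38. Adm moved from 0.54 to -0.22 and Egln3 from 1.08 to 0.44, which ended the Egln3 call. Car9 stood at 0.80, still past 1.5-fold. Such an average follows most the state with the highest CPM. Within the Lalba-led, Fermt1-led and Nusap1-led state in turn, Ndrg1 stood at -0.61, -0.15 and -1.49. Bnip3 stood at -0.43, 0.26 and -0.06, and Car9 at 0.50, 0.94 and 0.18.

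**Figure D3:**
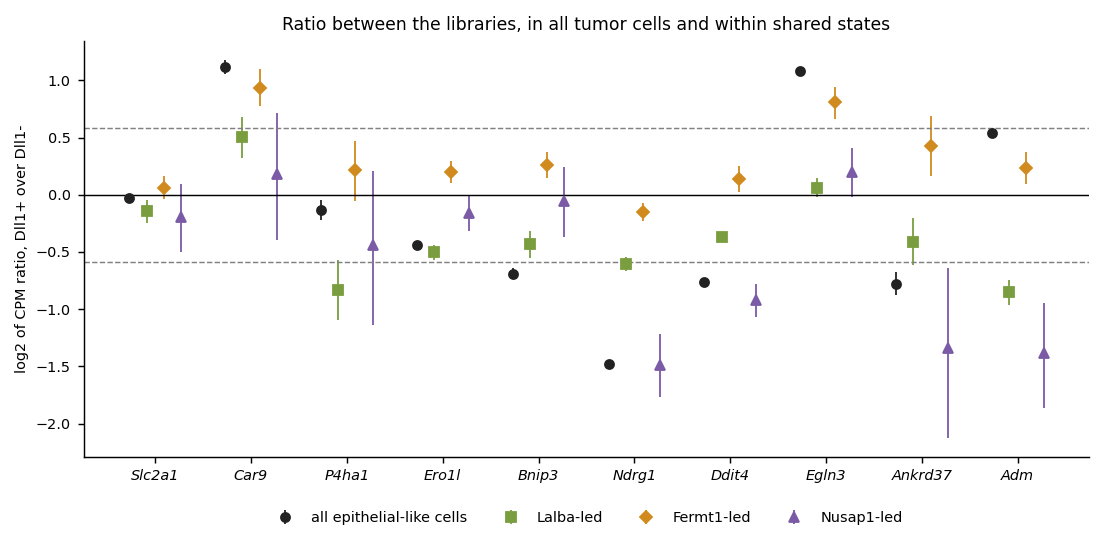
Log2 ratio of CPM, Dll1+ over Dll1-, of each of the 10 genes in all epithelial-like cells (black) and within 3 tumor cell states found in both libraries, with 95% counting intervals; dashed lines mark 1.5-fold. Ndrg1 lies at -1.48 over all cells, and at -0.15 within the Fermt1-led, -0.61 within the Lalba-led and -1.49 within the Nusap1-led state.

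A finer division of the tumor cells, at a Leiden resolution of 0.8, showed a second set of cells high for these genes, and it was almost confined to the Dll1+ library. The Fgfbp1-led state, with Aldh1a3 and Timp3 among its leading genes, held 604 Dll1+ and 3 Dll1- cells. Of the 604, 91.7% had been in the Cxcl10-led state of the coarser division. This state too was singled out after its values had been seen.

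In the Fgfbp1-led state Ero1l stood at 657 CPM against 130 CPM in all other Dll1+ tumor cells, 5.05-fold (4.85 to 5.25) apart. Ndrg1 stood at 460 against 85.6 CPM, Adm at 436 against 122 CPM, Slc2a1 at 431 against 109 CPM and Egln3 at 429 against 169 CPM. Of the 10 genes 9 were higher in the state, against a background of 11.2% of 6380 genes, and 0 were lower, against 21.2%. Ddit4 was the exception, at 150 CPM against 208 CPM. Adm and Egln3 thus were high here, whereas in the Fermt1-led state they were within 1.5-fold of the other Dll1+ tumor cells. The state had a median of 4.72% mitochondrial UMIs and 7280 UMIs per cell.

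At the same resolution the Dll1- cells highest for these genes were the Fam107b-led cells (2254 Dll1- and 116 Dll1+ cells), which had the highest level of 7 of the 10 genes in the Dll1- library, with Ndrg1 at 685 CPM and Slc2a1 at 336 CPM. In the Dll1+ library the 116 Fam107b-led cells had the highest level of 4 of the 10 genes, and the Fgfbp1-led cells of 5. There Ndrg1 stood at 650 CPM in Fam107b-led against 460 CPM in Fgfbp1-led cells, and Bnip3 at 380 against 241 CPM.

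Apart from Ddit4, the genes tended to be found in the same cells. Tumor cells were thinned to 5000 UMIs each, which left out 2496 Dll1+ and 1131 Dll1- shallower cells and kept 5717 and 7602. Each gene's level was then read in cells grouped by how many of the other 9 genes had a UMI. In cells with 4 or more of the others, 9 of the 10 genes were at least 1.5-fold above their level in cells with none, in both libraries. Over all genes compared between cells with 4 or more and with none of the 10, the share at least 1.5-fold higher was 10.3% in the Dll1+ and 9.25% in the Dll1- library. That share is from cells grouped by all 10 genes, which is a slightly different grouping.

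Bnip3 stood at 18.7 CPM with none of the others detected, 23.9 with 1, 29.0 with 2, 51.7 with 3 and 177 with 4 or more in the Dll1+ library. In the Dll1- library the same steps gave 37.2, 46.7, 55.9, 96.7 and 199 CPM. Most of the increase thus lay in the last step. From none to 4 or more, Ndrg1 went from 48.99 to 251 CPM in Dll1+ and from 115 to 594 CPM in Dll1- cells, and Slc2a1 from 69.2 to 292 and from 57.8 to 252 CPM. Car9 went from 29.8 to 128 CPM and from 4.48 to 53.1 CPM, and Adm from 62.3 to 283 CPM and from 48.8 to 143 CPM.

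Ddit4 did not follow. It stood at 211 CPM with none of the others and 214 CPM with 4 or more in Dll1+ cells (1.01-fold, 0.923 to 1.11), and at 386 and 292 CPM in Dll1- cells, a log2 ratio of -0.40 (-0.50 to -0.31). Correlations of log2(1 + UMIs) across the thinned cells, given as a description of sparse counts, were weak throughout. Over the 45 pairs of genes the median Pearson r was 0.15 in the Dll1+ and 0.11 in the Dll1- library. The highest were Ero1l with Bnip3 in the Dll1+ (0.35, over 5717 cells) and Slc2a1 with Ndrg1 in the Dll1- library (0.36, over 7602 cells).

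Tumor cells with 4 or more of the 10 genes were 30.5% (1743) of the Dll1+ and 42.1% (3202) of the Dll1- thinned tumor cells, and 8 and 2 cells had all 10. In the Dll1- library 55.5% of the cells with 4 or more were in the Fermt1-led state. In the Dll1+ library 7.86% were, while 18.1% were in the finer Fgfbp1-led state and 44.9% in the finer state led by Prpmp5. The Prpmp5-led state was also the largest finer state of that library. Of all 8213 Dll1+ tumor cells, thinned or not, 278 were Fermt1-led, 604 Fgfbp1-led and 3388 Prpmp5-led. Before thinning, cells with 4 or more had medians of 10193 and 11122 UMIs and cells with none 12897 and 12005, so the former were not the deeper cells. Their median mitochondrial shares were 4.18% and 3.14%, against 4.94% and 3.98%. The summed level of the cycling genes was 150 and 132 CPM, against 607 and 319 CPM. The epithelial markers summed to 11873 and 16079 CPM in cells with 4 or more, against 7538 and 11859 CPM in cells with none. The dissociation and immediate early genes summed to 17738 and 14958 CPM, against 13200 and 16992 CPM. The part of these measures in the result was not tested. Dll1 itself stood at 54.8 CPM (478 UMIs) in Dll1+ cells with 4 or more and 56.0 CPM (93 UMIs) in those with none.

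**Figure D4:**
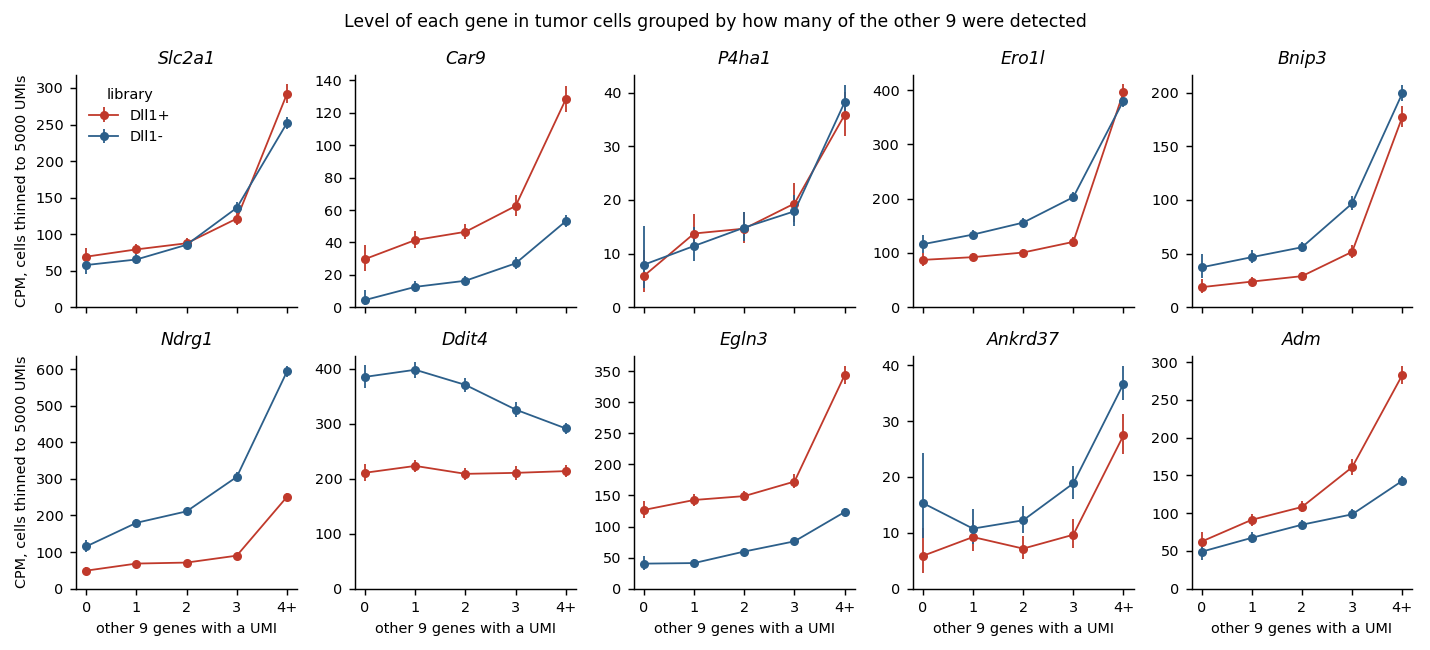
Level of each of the 10 genes, in CPM with 95% counting intervals, in tumor cells thinned to 5000 UMIs and grouped by how many of the other 9 genes had a UMI, for the Dll1+ (red) and Dll1- (blue) library. Bnip3 goes from 18.7 to 177 CPM in the Dll1+ library, while Ddit4 stays between 209 and 223 CPM there.

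Genes whose pattern was most like that of the 10 were ranked by the ratio of their level in tumor cells with 4 or more of the 10 genes to that in cells with none, taking the smaller of the libraries' ratios, over 4867 genes. Of the first 12, 7 were on the lists of further HIF targets, which had 37 genes among the 4867. The first was Tpm2, a tropomyosin, at 70.2 against 9.04 CPM in Dll1+ and 117 against 21.1 CPM in Dll1- cells. Vegfa, the growth factor of blood vessels, followed at 229 against 47.0 CPM and 234 against 39.4 CPM. Pdgfa, P4ha2, Lgals3, the HIF hydroxylase Egln1, Pfkp and Fam162a were the others from the HIF lists. Hmox1, Endod1, Espn and Aldoa (ENSMUSG00000030695), a glycolytic aldolase, were on none of them. All 12 were at least 3.06-fold higher in both libraries, by the way they were ranked.

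Of the 14 HIF pathway genes, 8 passed the level filter, and between the libraries 1 (Ep300, a coactivator, at 31.0 against 19.4 CPM) was higher in Dll1+ tumor cells and 0 were lower, against 18.3% and 6.94% of all genes, which is near the background. Hif1a stood at 65.2 and 60.5 CPM, Arnt at 26.7 and 25.8 CPM, and Egln1 at 51.6 and 73.6 CPM. In the Fermt1-led state Hif1a stood at 79.7 CPM against 64.7 CPM in the other Dll1+ tumor cells and at 55.1 against 62.6 CPM in Dll1-. Egln1, which is also a HIF target, was the 1 pathway gene that was higher in the state in both libraries, at 146 against 48.5 CPM and 141 against 47.8 CPM. Epas1, the other main alpha subunit, stood at 6.69 and 2.93 CPM in tumor cells, at 386 and 280 CPM in pericyte-like and at 426 and 317 CPM in endothelial-like cells.

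Of the 54 HIF targets beyond the 10 genes, most of those that passed the level filter were higher in the Fermt1-led state. Between the libraries, 43 passed the level filter in tumor cells, of which 7 were higher and 12 lower in the Dll1+ library, against 18.3% and 6.94% of all genes, with a median log2 ratio of -0.09. Among secreted and matrix targets, Edn1, a vessel-constricting peptide, stood at 155 against 38.9 CPM, Plod2, a collagen lysyl hydroxylase, at 42.5 against 19.1 CPM, and Pdgfb, a platelet-derived growth factor, at 31.9 against 89.7 CPM. Among glycolysis genes Hk1 stood at 112 against 43.3 CPM, Hk2 at 31.0 against 82.5 CPM and the lactate exporter Slc16a3 at 8.55 against 26.8 CPM. Of the mitochondrial and metabolic targets, the carbonic anhydrase Car12 stood at 175 against 20.4 CPM and the lipid droplet protein Plin2 at 238 against 702 CPM.

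In the Fermt1-led state 27 of 43 were higher and 4 lower than in the other Dll1+ tumor cells, against 14.1% and 25.7% of all genes. In the Dll1- library 24 of 42 were higher and 1 lower, against 14.6% and 27.9%. Their medians were 0.75 and 0.88 on the log2 scale. The secreted and matrix targets had the highest median of the 4 groups of targets, 1.68 and 1.78, with 6 of 9 and 7 of 8 higher. Lgals3 stood at 1304 against 114 CPM and at 925 against 89.9 CPM. Vegfa stood at 359 against 99.2 CPM and at 297 against 69.6 CPM. Pgk1, a glycolytic kinase, stood at 1289 against 418 CPM and at 1185 against 433 CPM.

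The 4 that were lower in the Dll1+ library were Car12, at 30.5 against 180 CPM, Zfp395, at 41.7 against 116 CPM, Edn1, at 76.3 against 158 CPM, and Hk1, at 62.0 against 114 CPM. In the Fgfbp1-led state 33 of 43 were higher and 2 lower than in other Dll1+ tumor cells, against 11.2% and 21.2% of all genes. The median of the 43 was 1.17. Thinned tumor cells with 4 or more of the 10 genes were compared with those with none. In the Dll1+ library 37 of 42 further targets were higher and 0 lower, against 10.3% and 14.5% of all genes. In the Dll1- library 33 of 43 were higher and 1 lower, against 9.25% and 17.6%. The medians of the targets were 1.13 and 1.01, beside -0.09 and -0.13 for all genes.

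Ddit4 and Ero1l are also genes of the unfolded protein and integrated stress response, so the other genes of that response were read beside them. Of the 9 of 12 that passed the level filter between the libraries, 1 was higher (Herpud1, at 78.3 against 44.5 CPM) and 3 were lower in Dll1+ tumor cells, with Xbp1 at 362 against 720 CPM and the chaperone Hspa5 at 415 against 743 CPM. Over all genes 18.3% were higher and 6.94% lower. In the Fermt1-led state 3 genes of the response were higher and 3 lower in the Dll1+ library. In the Dll1- library 2 were higher and 5 lower. Over all genes compared in that state, 14.1% were higher and 25.7% lower in the Dll1+ library, and 14.6% and 27.9% in the Dll1- library. Xbp1 in the Fermt1-led state stood at 161 against 369 CPM and at 234 against 905 CPM. The glucocorticoid targets, another set that Ddit4 belongs with, had Tsc22d3 at 44.7 against 158 CPM in the Dll1+ library and at 59.97 against 270 CPM in the Dll1- library, and Sgk1 at 466 against 253 CPM and at 216 against 123 CPM. Of the 13 dissociation and immediate early genes 0 were higher in the state in either library, and 5 and 8 were lower. The shares of all genes are those given above for the state.

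**Figure D5:**
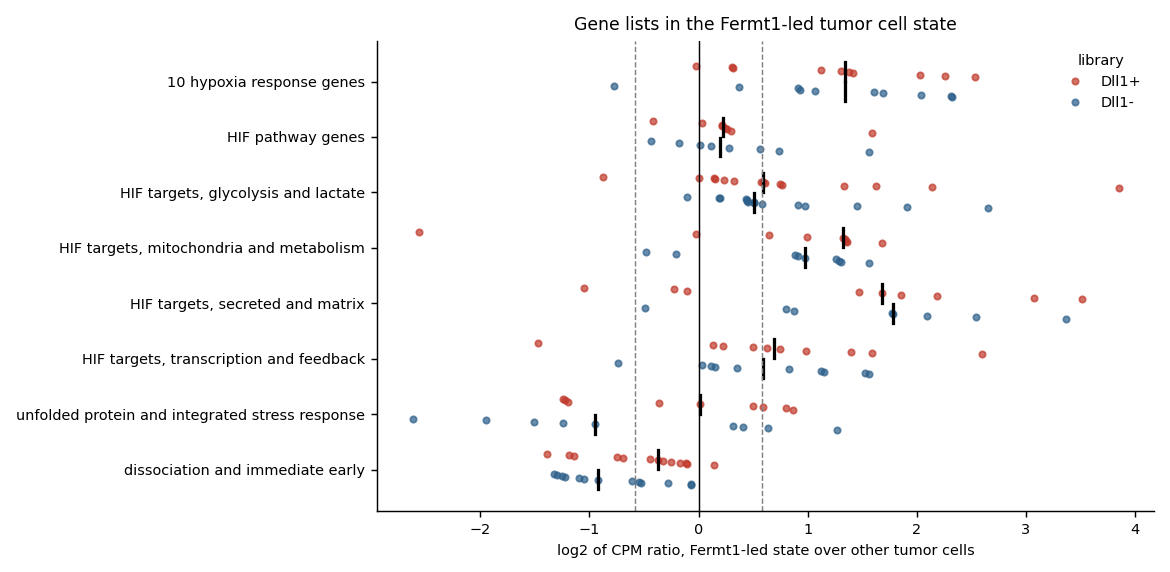
Log2 ratio of CPM, Fermt1-led state over other tumor cells, of each gene (points) that passed the level filter in that comparison, for 8 gene lists and both libraries; short black lines are medians and dashed lines mark 1.5-fold. The 10 hypoxia response genes have medians of 1.35 and 1.34, and the dissociation genes lie mostly below 0.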

How the data were processed

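One single-cell RNA library per tumor was analysed. The deposited values are raw UMI counts per gene and barcode, which the authors made with Cell Ranger, version 4.0.0 per the file headers, on mm10, per the submitters' processing notes. Barcodes with at least 1000 UMIs, 500 genes and at most 20% mitochondrial UMIs were kept. Scrublet's automatic threshold called 0 doublets in either library, so the highest scores were removed at 0.8% per 1000 barcodes, which was 896 Dll1+ and 989 Dll1- barcodes. Cells of both libraries were clustered together in scanpy 1.11.5 (2000 variable genes, 30 principal components, 15 neighbours, Leiden resolution 0.6 with leidenalg 0.10.2). Tumor cells were clustered again at 0.4, and at 0.8 as an alternative. In the clusterings as reported 64 genes, the 10 hypoxia response genes and 54 further HIF targets, were left out, and an alternative used all variable genes.

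A cluster took a class name when 3 or more markers, and no less than 50% of the marker list, were each found in 20% of its cells, and its 10 leading genes did not go against that name. Krt5-led cells were kept under their leading gene. Counts were summed per class or state and scaled to CPM. Genes with 20 CPM in at least 1 of the groups compared entered a comparison. With 1 library per group, no test was made. Intervals are exact (Poisson for a level, Clopper-Pearson for a share, conditional binomial for a ratio) and hold counting error alone. The computation of ratios and intervals was tested on simulated counts. Random thinning drew each cell's UMIs without replacement.

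The text names the 10 genes, up to 4 genes of each list with the largest ratios between the libraries, all HIF pathway genes it needs, the 12 genes ranked most like the 10, and up to 3 leading genes of a cluster; 1 gene that this rule named is not reported here. The 10 genes, the lists and the comparisons were chosen with earlier results of these data known. The Fermt1-led and Fgfbp1-led states and the criterion for the results below that point opposite ways were chosen after their values had been seen. Alternatives were the mitochondrial limit, doublets, thinning, the level filter, the scaling and the clustering. Python 3.11.15, numpy 2.4.6, scipy 1.17.1, pandas 2.3.3, anndata 0.12.19 and matplotlib 3.10.9 were used.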

Additional observations from a re-analysis of the deposited data

Results flagged for a closer look

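For 7 pairs of a gene and a stromal or Krt5-led class, the Dll1+ over Dll1- ratio pointed one way in that class and the other way in epithelial-like cells, with counting intervals on opposite sides of 0. The difference between the classes was not tested, since each group had 1 library. In fibroblast-like cells the log2 ratio of Adm was -0.32, against 0.54 in epithelial-like cells, and that of Ddit4 was 0.72, against -0.76. In pericyte-like cells Bnip3 stood at 1.15, against -0.69, and Ankrd37 at 2.26, against -0.78, from 41 and 4 UMIs. At 18.2 and 3.79 CPM, Ankrd37 was under the level filter in pericyte-like cells. Ankrd37 stood at 0.96 in endothelial-like cells, again against -0.78, from 45 and 20 UMIs. In Krt5-led cells Bnip3 stood at 0.79, against -0.69, and P4ha1 at 0.59, against -0.13. With doublets kept, the pericyte-like value of Bnip3 turned to -0.31 and that of Ankrd37 went to 0.19, and the Krt5-led value of Bnip3 went to 0.25. With the CPM of the 3 shared tumor cell states averaged with equal weight, the epithelial-like value of Adm was -0.22 and that of Bnip3 0.12. On that average the pair of Adm and both pairs of Bnip3 no longer pointed opposite ways. Single states differed. Bnip3 stood at -0.43 in Lalba-led, -0.06 in Nusap1-led and 0.26 in Fermt1-led cells, and Adm at -0.85, -1.39 and 0.24.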

How the results depend on the processing

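No paired analysis was possible because each group has 1 library. Among summary values under alternatives, 79 moved by less than their spread or stayed within 1.5 times, 25 moved and 1 reversed. For single genes the numbers were 173, 67 and 4. In epithelial-like cells the median of the 10 genes was -0.54 with TMM factors and -0.45 centred on the median gene. It was -0.038 on the equal-weight CPM average of the 3 shared states, where 1 gene was higher, 0 were lower and Bnip3 stood at 0.12. The further HIF targets had a median of -0.35 with TMM factors and 0.0053 without the level filter, with 13 higher. With doublets kept, the median of the 10 genes was 0.56 in fibroblast-like and -0.18 in pericyte-like cells, with 4 lower in pericyte-like, 3 in endothelial-like and 1 in Krt5-led cells. There Adm stood at -0.84 and Bnip3 at -0.31 in pericyte-like and Bnip3 at -0.81 in endothelial-like cells. With at most 10% mitochondrial UMIs, 1 gene was lower in pericyte-like and 1 higher in Krt5-led cells. With cells thinned to 2000 UMIs, 1 was lower in fibroblast-like, 5 were higher in pericyte-like, 2 higher in endothelial-like, and 1 higher and 1 lower in Krt5-led cells. With TMM factors 1 was lower in Krt5-led cells. In the Dll1+ Fermt1-led state the median was 1.15 with all variable genes used and 1.49 in the best matching state at resolution 0.8, the Fam107b-led state. From none to 4 or more others detected, the median was 1.73 (Dll1+) and 1.21 (Dll1-) at 10000 UMIs and 1.45 in the largest Dll1+ state. The cause was not tested for any of these. In the stroma several of the 10 genes had under 50 UMIs in a class, and 1 tumor per group limits every difference between the libraries.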
